A study of Mus musculus with 18 samples.

Results

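The 10 transcripts described here encode enzymes and 1 activating protein of leukotriene, lipoxygenase and prostaglandin synthesis: Alox5, Alox5ap, Ltc4s, Lta4h, Alox15, Ptgs1, Ptgs2, Ptges, Hpgds and Tbxas1. They were chosen by name, with earlier results of these data known, and all are reported whatever their values. They are 10 of the 54446 genes in the table. Each of the 10 matched a single Ensembl identifier. The cells were peritoneal eosinophils of Il5Tg mice, a line in which transgenic Il5 expands eosinophils and whose strain the labels give as C57BL/6. They were cultured for 18 h with apoptotic thymocytes of wild-type mice (ACs), killed with dexamethasone and added at 5 per eosinophil, and were then purified again with beads against Siglec-F. One experiment, called Type 1, had 3 libraries with each of 4 cultures. These were ACs alone, E. coli with ACs, IFN-γ with ACs, and IFN-γ and E. coli with ACs. The study describes the stimuli of the last culture as IFN-γ followed by E. coli, without giving the interval. The other experiment, called IL-4, had 3 libraries each of ACs alone and IL-4 + ACs. All 18 libraries are from cultures with ACs, so each change given is on top of ACs and is relative to the ACs group of the same experiment. The ages of the eosinophil donors are not given in the sources used here, and eosinophils without ACs are not analysed here. Because the RNA is from bulk cultures, fewer cells of a type and less RNA per cell cannot be told apart.

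Eosinophils are known as producers of lipid mediators. Phospholipases release arachidonic acid from membranes, and 2 families of enzymes then compete for it. The 5-lipoxygenase encoded by Alox5, presented with its substrate by the activating protein encoded by Alox5ap, makes the leukotriene precursor that Lta4h converts to leukotriene B4 and Ltc4s to leukotriene C4, the first cysteinyl leukotriene. The cyclooxygenases encoded by Ptgs1 and Ptgs2 make the prostaglandin precursor that Ptges, Hpgds and Tbxas1 convert to prostaglandin E2, prostaglandin D2 and thromboxane A2. Alox15 encodes the 12/15-lipoxygenase, whose products include precursors of lipid mediators linked to the end of inflammation and to the handling of apoptotic cells. Ptgs1 is known as the constitutive and Ptgs2 as the inducible cyclooxygenase.

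The promoter windows of the 2 transcripts with the largest rises past the threshold are shown because both rose with bacteria and with IFN-γ but differed when the stimuli were combined. The sequences are those of RefSeq on GRCm38.p6 and run from 250 bases before to 50 bases after the annotated start site, 5′ to 3′ on the strand of the gene. Ptgs2 is at chr1:150099781-150100080 on the plus strand and Ptges at chr2:30903248-30903547 on the minus strand. Capitals mark letters that match a searched motif on either strand.
Ptgs2: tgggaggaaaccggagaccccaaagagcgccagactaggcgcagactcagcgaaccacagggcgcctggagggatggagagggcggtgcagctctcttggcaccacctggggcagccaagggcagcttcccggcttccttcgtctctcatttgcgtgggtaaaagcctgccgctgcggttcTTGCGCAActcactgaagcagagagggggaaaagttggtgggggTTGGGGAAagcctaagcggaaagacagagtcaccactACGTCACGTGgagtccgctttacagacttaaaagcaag
Ptges: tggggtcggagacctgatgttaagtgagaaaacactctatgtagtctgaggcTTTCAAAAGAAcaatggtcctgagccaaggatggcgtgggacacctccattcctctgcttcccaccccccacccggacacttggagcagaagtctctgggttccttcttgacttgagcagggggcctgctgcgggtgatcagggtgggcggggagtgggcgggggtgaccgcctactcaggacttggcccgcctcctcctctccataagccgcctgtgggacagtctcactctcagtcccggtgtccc
In Ptgs2, the first capitals, TTGCGCAA, and the second, TTGGGGAA, match the C/EBP pattern TTNNGNAA, which 40.7% of the 32851 promoter windows searched held. The windows of a single chromosome were left out of this search and of the percentages below. The last capitals join the core of the cAMP response element, ACGTCA, which 7.51% of windows held, to an E-box, CACGTG, which 7.15% held, and both share their middle bases. These 3 elements are textbook parts of the Ptgs2 promoter and were searched after the values were known. Relative to the annotated start site used here, the C/EBP matches begin 69 and 25 bases before it. The cAMP response element and the E-box begin 12 and 16 bases after it. In Ptges the capitals hold a STAT6 pattern, TTCNNNNGAA, found in 6.95% of windows, and overlap with a C/EBP match on the opposite strand. Of the 8 members with a window, the STAT6 pattern was also found in Tbxas1. The GAS pattern TTCNNNGAA, held by 8.30% of windows, and the NF-kB consensus, held by 4.51%, were not found in those 8 windows, which says only that these letters are not in 300 bases. Motif matches are descriptions of the sequence.

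Between 779421 and 7782072 reads fell on genes in a library (median 4461121). The replicate 3 libraries of both groups of the IL-4 experiment are the shallow ones, and in them 3 reads, below which a count cannot be told from 0, stand for normalized counts of 15.4 and 16.1. Values are the authors' normalized counts (reads divided by a size factor of the library), so levels of 1 gene can be compared between libraries but not with another gene. A transcript is called increased or decreased when limma gave a Benjamini-Hochberg adjusted p under 0.05 over all genes tested and the change was at least 1.5-fold, and log2 differences are on the scale of log2(normalized count + 1) with their standard error. The eosinophil markers Siglecf (1514 to 3367 in all 18 libraries) and Ccr3 were present, whereas the granule protein transcript Epx was at 0 to 25.7. All 12 markers of peritoneal macrophages were detected, and their values are given beside the results they move with. The study calls the libraries of a group biological replicates, and it states for its comparison of ACs with non-activated eosinophils that each came from another mouse. The same is not stated for the stimulated groups, so p-values set a difference against the spread between libraries, not between known mice. That spread is pooled over the groups of a fit.

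**Figure D1:**
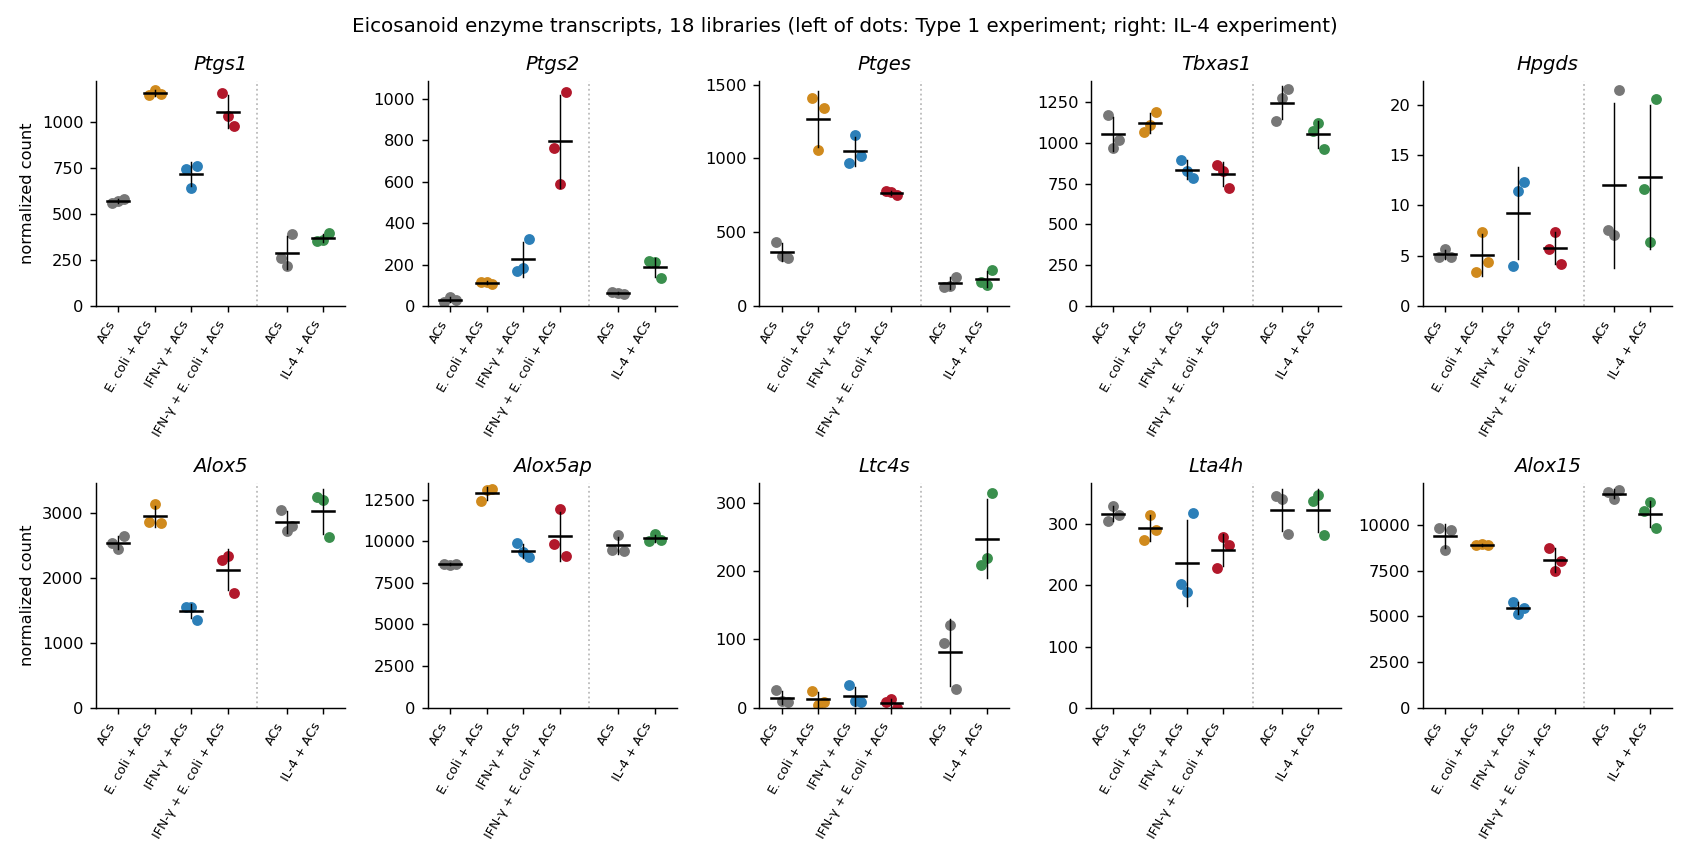
Normalized counts (y axes, linear from 0) of the 10 transcripts in each of the 18 libraries, by group. Points are libraries, thick lines group means and thin lines SD of 3 libraries. Ptgs2 is lowest with ACs alone and highest with IFN-γ + E. coli + ACs, where its 3 libraries lie between 589 and 1036. Ltc4s is at most 32.98 in all 12 Type 1 libraries. In the IL-4 experiment it is 26.8 to 121 with ACs alone and at least 209 in the 3 libraries with IL-4.

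Among the members, Ptgs2 changed most. It is a protein-coding gene (ENSMUSG00000032487.8) on chromosome 1 of GRCm38, from 150100031 to 150108227. In the Type 1 experiment the libraries with ACs alone had normalized counts of 20.3, 42.2 and 27.7, or 30.1 ± 11.1 (SD, n = 3). With E. coli the values were 116, 116 and 106 (112 ± 5.92, SD, n = 3), and with IFN-γ they were 168, 183 and 324 (225 ± 86.3, SD, n = 3). With both stimuli they reached 761, 589 and 1036 (795 ± 226, SD, n = 3). The 4 groups formed a ladder in which no library of one group overlapped with the next. The limma log2 difference from ACs was 1.93 ± 0.27 (SE) with E. coli (Benjamini-Hochberg adjusted p = 4.6e-05) and 2.86 ± 0.27 with IFN-γ (adjusted p = 1.3e-07). It was 4.70 ± 0.27 with both (adjusted p = 7.7e-11), a 26.0-fold change on the fitted scale. IFN-γ raised Ptgs2 more than E. coli did, by 0.93 ± 0.27 (limma, adjusted p = 0.016). That difference rested on single libraries, since without IFN-γ + ACs replicate 3 it was 0.64 (adjusted p = 0.11) and without E. coli + ACs replicate 3 it was 0.89 (adjusted p = 0.061).

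IL-4 also increased Ptgs2. The ACs libraries of the IL-4 experiment had 69.2, 64.6 and 59.0, and the IL-4 + ACs libraries had 216, 211 and 134, the last of these from a library in which 26 reads fell on the gene. All IL-4 values lay above all ACs values. The log2 difference was 1.495 ± 0.24 (limma, Benjamini-Hochberg adjusted p = 0.015), 2.82-fold on the fitted scale. The call was lost when replicate 1 or 2 of either group was left out, with log2 differences of 1.38 to 1.55 and adjusted p-values of 0.055 to 0.096, and was kept without either shallow library or without both.

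Ptgs2 was the member called in all 4 comparisons with ACs. Of the 9 members tested in the Type 1 experiment, 3 were increased by E. coli and none decreased, against a background in which 10.3% of the 10166 genes tested were past the threshold (5.05% higher and 5.25% lower). With IFN-γ, 2 members were increased and 2 decreased, against 21.4% of all genes (11.4% higher and 9.96% lower). With both stimuli 3 were increased and none decreased, against 31.9% (14.7% higher and 17.2% lower). With IL-4, 1 of 10 members was increased and none decreased, against 1.09% of 10669 genes (0.74% higher and 0.347% lower). The libraries of stimulus and ACs did not overlap for 5 of 9 members with E. coli, 7 of 9 with IFN-γ, 7 of 9 with both and 4 of 10 with IL-4, beside 38.3%, 42.9%, 48.8% and 17.3% of all genes tested. The median log2 difference of the members was 0.21, 0.08, -0.22 and 0.10 in these 4 comparisons, beside medians of -0.00, -0.00, -0.05 and -0.01 over all genes tested. The 3 Type 1 comparisons share the same 3 ACs libraries and so are not independent of each other.

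**Figure D2:**
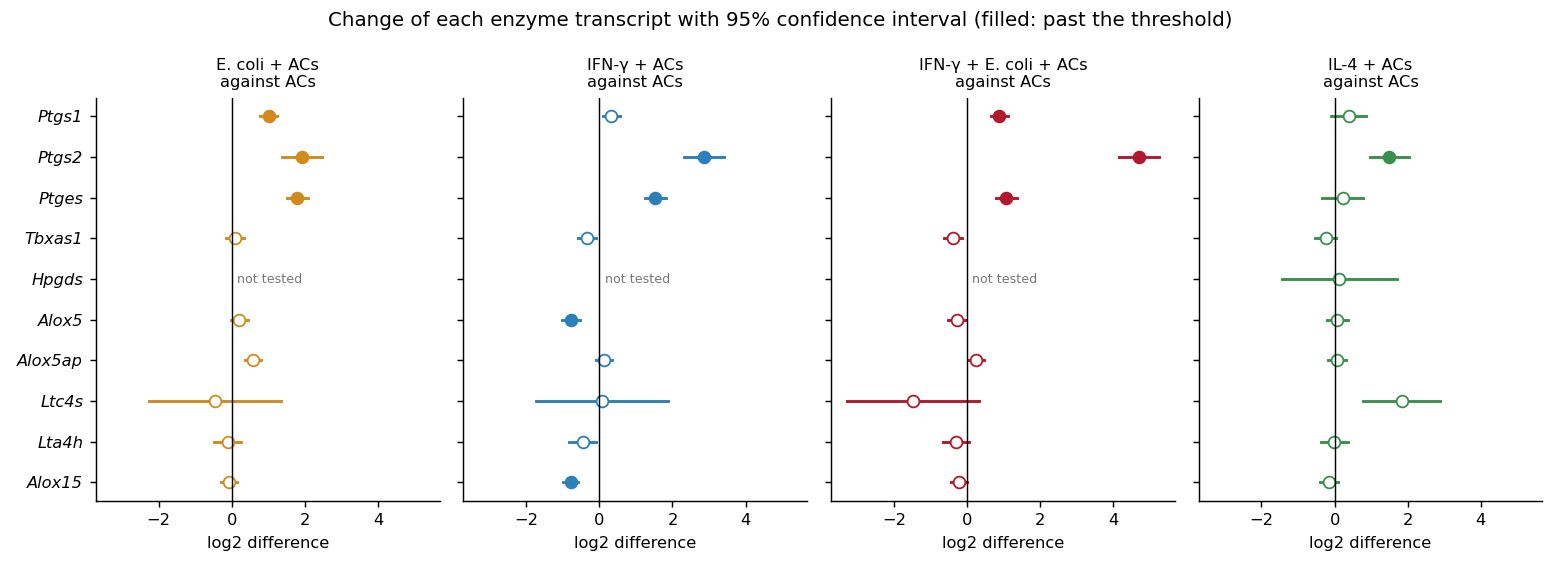
Log2 difference of each transcript from the ACs group of its experiment (x axis), with its 95% confidence interval as a bar, for E. coli, IFN-γ, both and IL-4. Filled points are past the threshold. The cyclooxygenase and prostaglandin E synthase transcripts lie to the right in the 3 Type 1 panels, Alox5 and Alox15 lie to the left with IFN-γ, and the widest intervals belong to Ltc4s and, with IL-4, Hpgds.

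Ptgs1 (ENSMUSG00000047250.13), on chromosome 2 from 36230426 to 36252272, behaved differently from Ptgs2. Its normalized counts were 561, 572 and 584 with ACs alone and 1144, 1174 and 1155 with E. coli. IFN-γ gave 745, 643 and 761, and both stimuli gave 1157, 1033 and 980. Libraries with E. coli, alone or with IFN-γ, lay above all others, and those of these 2 groups overlapped. The log2 difference was 1.02 ± 0.11 with E. coli (2.02-fold on the fitted scale, limma, Benjamini-Hochberg adjusted p = 2.9e-06) and 0.88 ± 0.11 with both (adjusted p = 3.9e-06). With IFN-γ it was 0.32 ± 0.11, which passed the adjusted p (0.037) but not 1.5-fold, and it was lower than with E. coli by 0.70 ± 0.11 (limma, log2 difference -0.70, adjusted p = 1.2e-04). In the IL-4 experiment Ptgs1 ranged from 216 to 391 with ACs and from 352 to 396 with IL-4, and the change of 0.39 ± 0.21 was not past the threshold (limma, adjusted p = 0.61).

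The balance of the 2 cyclooxygenase transcripts therefore differed between conditions. Taken as a share of the reads on both genes within a library, which needs no scaling between libraries, Ptgs2 held 3.50%, 6.88% and 4.53% with ACs alone. The first of these has a 95% Wilson interval of 2.38% to 5.11%, which covers counting error only, as do all such intervals. With E. coli the share was 9.17%, 9.0% and 8.37%, and with IFN-γ it was 18.4%, 22.2% and 29.9%. With both stimuli it was 39.7%, 36.3% and 51.4%, the last with an interval of 48.8% to 54.0%. No group of the Type 1 experiment overlapped with another. The means, with the SD of 3 libraries, were 4.97 ± 1.73%, 8.85 ± 0.419%, 23.5 ± 5.86% and 42.5 ± 7.93%. Among IL-4 experiment libraries the share was 21.0%, 23.1% and 13.1% with ACs and 38.0%, 37.1% and 25.2% with IL-4, again without overlap. The last library of each of these groups is the shallow one, and the interval of its share is wide, 7.47% to 21.9% with ACs and 17.8% to 34.4% with IL-4. These are shares of reads at transcript ends and were described without a test.

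**Figure D3:**
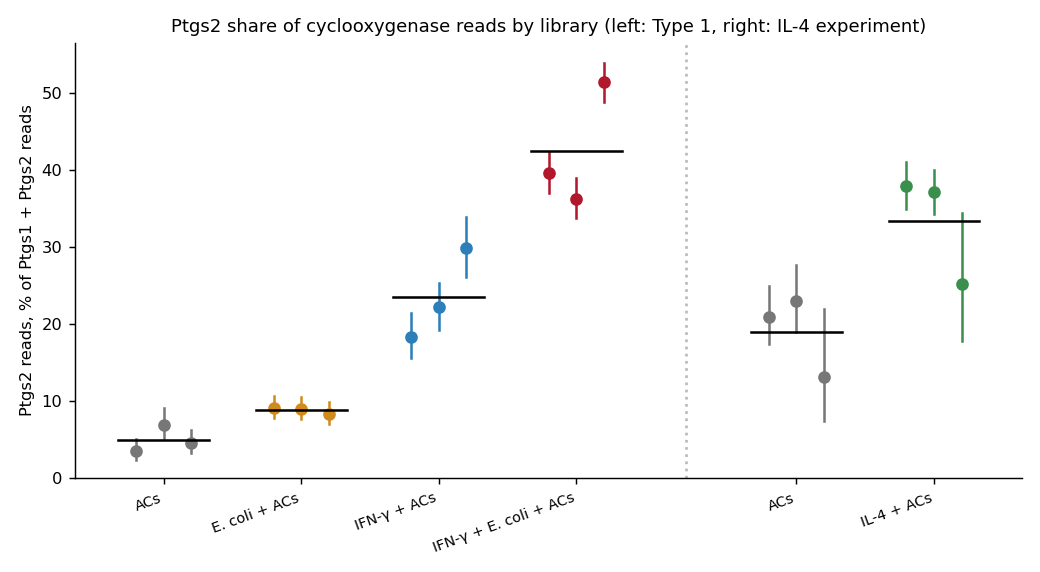
Ptgs2 reads as a percentage of the reads on Ptgs1 and Ptgs2 together (y axis) in each library, by group. Points are libraries, vertical bars their 95% Wilson intervals for counting error and black lines group means. In the experiment with E. coli and IFN-γ, the mean share rises from 4.97% with ACs alone to 42.5% with IFN-γ + E. coli + ACs. In the IL-4 experiment it is 19.0% with ACs alone and 33.4% with IL-4 + ACs.

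Ptges (ENSMUSG00000050737.13), on chromosome 2 from 30889471 to 30929863, encodes the inducible microsomal prostaglandin E synthase. With ACs alone it had 436, 337 and 323 normalized counts, with E. coli 1412, 1054 and 1339, and with IFN-γ 969, 1159 and 1014. With both stimuli it had 778, 771 and 751, above every ACs library but below every library with a single stimulus. The log2 difference from ACs was 1.79 ± 0.14 with E. coli (limma, Benjamini-Hochberg adjusted p = 4.4e-08), 1.53 ± 0.14 with IFN-γ (adjusted p = 8.5e-08) and 1.08 ± 0.14 with both (adjusted p = 4.7e-06). E. coli and IFN-γ did not differ past the threshold, with an IFN-γ minus E. coli log2 difference of -0.27 and a 95% interval of -0.56 to 0.02. IL-4 gave 163, 140 and 242 beside 128, 137 and 198 with ACs, ranges that overlap, with a log2 difference of 0.22 ± 0.25 (limma, adjusted p = 0.80).

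The other terminal synthases did not pass the threshold in any comparison with ACs. Tbxas1 (ENSMUSG00000029925.13), the thromboxane synthase gene on chromosome 6 from 38875404 to 39084585, had 1169, 969 and 1019 with ACs and 1067, 1107 and 1189 with E. coli. It had 897, 825 and 786 with IFN-γ and 867, 829 and 726 with both, so every library with IFN-γ lay below every ACs library. These falls of 0.33 ± 0.12 and 0.38 ± 0.12 on the log2 scale had adjusted p-values of 0.040 and 0.013 (limma, Benjamini-Hochberg) but were short of 1.5-fold. Tbxas1 overlaps on the opposite strand with Hipk2, whose mean over the 18 libraries was 200, and whether the counting used strand is not stated. With IL-4 Tbxas1 had 1074, 1124 and 961 beside 1132, 1276 and 1330 with ACs, without overlap, and the difference of -0.24 ± 0.13 was not past the threshold (limma, adjusted p = 0.59). Hpgds (ENSMUSG00000029919.5), the hematopoietic prostaglandin D synthase gene on chromosome 6 from 65117293 to 65144908, was near the limit of detection. It had between 3 and 10 reads in each Type 1 library and was under the minimum for a test there. In the IL-4 experiment it had 7.52, 7.01 and 21.5 normalized counts with ACs and 11.6, 6.32 and 20.6 with IL-4, which overlap, and the interval of the log2 difference, -1.45 to 1.70, was wide.

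In the leukotriene branch, Alox5 was decreased by IFN-γ alone. The gene (ENSMUSG00000025701.12) lies on chromosome 6 from 116410077 to 116461178. Its normalized counts were 2542, 2451 and 2658 with ACs alone, 2866, 3143 and 2859 with E. coli, 1560, 1558 and 1361 with IFN-γ, and 2275, 2344 and 1766 with both. The 4 groups did not overlap with one another, in the order IFN-γ, both, ACs and E. coli from low to high. The log2 difference with IFN-γ was -0.77 ± 0.12 (limma, Benjamini-Hochberg adjusted p = 4.6e-05), and that between IFN-γ and E. coli was -0.99 ± 0.12 (adjusted p = 3.4e-06). With E. coli (0.21 ± 0.12) and with both (-0.27 ± 0.12) it was not past the threshold (limma, adjusted p = 0.26 and 0.071). With IL-4 the difference was 0.08 ± 0.13, with a 95% interval of -0.20 to 0.36.

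Alox5ap (ENSMUSG00000060063.9), on chromosome 5 from 149264767 to 149288153, followed another order. Its libraries with ACs alone were tightly grouped at 8654, 8591 and 8666, and those with E. coli were at 12408, 13068 and 13166. IFN-γ gave 9906, 9343 and 9058, and both stimuli gave 9836, 11949 and 9099. All 9 stimulated libraries exceeded the 3 with ACs alone, and the E. coli libraries exceeded all others. The log2 difference with E. coli, 0.58 ± 0.11, had an adjusted p of 9.0e-04 (limma, Benjamini-Hochberg) and was 1.49-fold on the fitted scale, just short of the fold required. Without E. coli + ACs replicate 1 it was 0.60 and past it. With IFN-γ it was 0.13 ± 0.11 and with both 0.24 ± 0.11, neither past the threshold (limma, adjusted p = 0.41 and 0.076), and with IL-4 it was 0.06 ± 0.11.

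Lta4h (ENSMUSG00000015889.8), the leukotriene A4 hydrolase gene on chromosome 10 from 93453411 to 93484875, was not past the threshold in any comparison. With ACs it had 306, 330 and 316, with E. coli 274, 316 and 291, with IFN-γ 203, 189 and 318, and with both 228, 279 and 266. The third IFN-γ library lay among the ACs libraries and the other 2 lay below them. The log2 difference with IFN-γ was -0.46 ± 0.17 (limma, Benjamini-Hochberg adjusted p = 0.053), and without IFN-γ + ACs replicate 3 it was -0.69 and past the threshold (adjusted p = 0.0020). With IL-4 the values of 338, 348 and 283 overlapped with the 346, 342 and 284 of the ACs libraries, and the log2 difference was -0.01 ± 0.16.

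Ltc4s (ENSMUSG00000020377.15), the leukotriene C4 synthase gene on chromosome 11 from 50236461 to 50238616, had lower group means in the Type 1 than in the IL-4 experiment. The shallow ACs library of the IL-4 experiment, at 26.8, lay within the range of the Type 1 libraries. In the Type 1 experiment it was low throughout, with 25.2, 10.3 and 8.16 with ACs, 24.3, 3.27 and 8.80 with E. coli, 32.98, 9.17 and 8.21 with IFN-γ, and 8.55, 12.2 and 0 with both. The groups overlapped, each value rested on 31 reads or fewer, and no change was past the threshold. Where the log2 difference was largest, with both stimuli, its interval ran from -3.29 to 0.34. In the IL-4 experiment the ACs libraries had 94.0, 121 and 26.8, the last from 5 reads, and the IL-4 + ACs libraries had 209, 220 and 314. All 3 IL-4 values exceeded the ACs values. The log2 difference of 1.83 ± 0.47 was not past the threshold (limma, Benjamini-Hochberg adjusted p = 0.16). It passed under 5 of the 11 alternatives given in the closing section, among them leaving out both shallow libraries (1.00, adjusted p = 0.0033) and DESeq2 on the recovered reads (1.44, adjusted p = 6.6e-04). Under the other 6 it was not past the threshold. In none of the 6 fits with 1 library left out did it pass (limma, log2 differences of 1.18 to 2.25, adjusted p = 0.053 to 0.38).

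Alox15 (ENSMUSG00000018924.6) lies on chromosome 11 from 70344152 to 70352031. It had 9831, 8640 and 9753 normalized counts with ACs alone, 8898, 8967 and 8926 with E. coli, 5772, 5145 and 5450 with IFN-γ, and 8781, 7498 and 8040 with both. The 3 IFN-γ libraries were the lowest of all 18. The log2 difference was -0.79 ± 0.10 with IFN-γ (limma, Benjamini-Hochberg adjusted p = 6.7e-06), a fitted ratio of 0.580. It was -0.07 ± 0.10 with E. coli and -0.22 ± 0.10 with both, neither past the threshold (limma, adjusted p = 0.72 and 0.095). In the IL-4 experiment the ACs libraries had 11848, 11451 and 11929 and the IL-4 libraries 10791, 11269 and 9858, and the difference of -0.14 ± 0.11 was not past the threshold (limma, adjusted p = 0.72) although the ranges did not overlap.

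Alox15 is also known as a transcript of resident peritoneal macrophages, and macrophage markers moved with the stimuli. Their summed normalized count was 23503 to 29967 with ACs in the Type 1 experiment, 20023 to 24232 with E. coli, 37582 to 48487 with IFN-γ and 19481 to 21859 with both. With IFN-γ 5 of the 12 markers were increased and 1 decreased, with E. coli 1 was increased and 5 decreased, and with both 3 were increased and 5 decreased. The sum was thus highest where Alox15 and Alox5 were lowest. C1qc, Lyz2, Cd14 and C1qb weigh most in it, with means of 7490, 6422, 6227 and 3719 over the 18 libraries. The markers increased by IFN-γ were Timd4, C1qb, Mertk, Marco and Lyz2, and Vsig4 was decreased. The summed level of 10 eosinophil markers was 7705 to 8072 with ACs, 8755 to 9895 with E. coli, 5073 to 5892 with IFN-γ and 6969 to 8386 with both, so it was lowest in the group where Alox15 and Alox5 were lowest. With IL-4 it was 15219 to 16501 beside 9468 to 12535 with ACs. Ccr3, Ear6 and Siglecf weigh most in this sum, with means of 3590, 2811 and 2406 over the 18 libraries. Among the 10 eosinophil markers, Siglecf was decreased by IFN-γ and by both stimuli, Il5ra by E. coli and by IFN-γ, and Ear2 by both. Ear6 was increased by E. coli and decreased by IFN-γ, Rnase2a was increased by IFN-γ, and Ear2, Ear6 and Rnase2a were increased by IL-4. The part of either marker list in the results for the members was not tested. In the IL-4 experiment the macrophage sum was 30899 to 44489 with ACs and 24708 to 40693 with IL-4, and 2 markers, Vsig4 and Marco, were decreased. Mast cells and platelets, which also make these mediators, were checked likewise. Of 10 mast cell markers, 3 reached a mean of 10 over the 18 libraries: Hdc (380), Gata2 (123) and Cpa3 (13.6). Tpsb2, Cma1, Kit and Tpsab1 averaged 7.86, 5.76, 2.76 and 2.29. The protease Mcpt4 and the receptor chains Ms4a2 and Fcer1a averaged under 0.770. The summed level of the 10 was 343 to 396 with ACs, 519 to 562 with E. coli and 332 to 422 with IFN-γ. It was 752 to 868 with both, and 651 to 899 with IL-4 beside 310 to 483 with ACs. Of 8 platelet and megakaryocyte markers, Gp9 and Gp1bb were at 0 in all libraries, whereas Pf4, Itga2b, F2rl2 and Ppbp were present, with means of 1777, 1250, 60.1 and 49.8. The summed level of the 8 was 3030 to 3753 with ACs, 3204 to 3791 with E. coli, 2192 to 2700 with IFN-γ and 1857 to 2225 with both, and with IL-4 it was 3878 to 5320 beside 2933 to 3210. Ppbp was increased by E. coli, Pf4 and F2rl2 were decreased by IFN-γ, and Pf4 was decreased by both stimuli. The part of mast cell and platelet transcripts in the results for the members was not tested. Hdc, the histidine decarboxylase gene expressed in mast cells and other granulocytes, rose with E. coli, with both stimuli and with IL-4. Cpa3, a mast cell protease gene, rose with IFN-γ and with both, and Gata2 was decreased by IFN-γ.

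Neutrophils are another known source of Ptgs2 transcripts. The markers S100a8 and S100a9, which encode calprotectin and which monocytes also express, were increased in all 3 Type 1 comparisons. S100a8 was at 39.2 to 56.3 with ACs, 254 to 383 with E. coli, 115 to 146 with IFN-γ and 114 to 189 with both. Ly6g was increased by IFN-γ, from 2.44 to 4.69 with ACs to 12.6 to 34.9, and by both stimuli, to 15.2 to 19.96. Of the other 6 neutrophil markers, Camp, Elane, Ltf, Mpo and Ngp were at 13.44 or less in all 18 libraries, and Retnlg was decreased by both stimuli, from 1506 to 1794 with ACs to 746 to 1043. The summed level of all 9 markers was 1565 to 1861 with ACs, 1959 to 2232 with E. coli, 1980 to 2440 with IFN-γ and 911 to 1232 with both. Most of this sum is Retnlg. None of the 3 markers tested in the IL-4 experiment passed the threshold there (limma, adjusted p at least 0.28). The part of these markers in the results for Ptgs2 was not tested.

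The combination of IFN-γ and E. coli was next compared with the sum of the single changes, in an interaction term of the same fit. The study gives IFN-γ before E. coli in the combined culture, so order and combination cannot be told apart in this term. On the log2 scale the single changes of Ptgs2 sum to 4.78, and the combination gave 4.70, so that the interaction was -0.08 ± 0.38, with a 95% interval of -0.87 to 0.70 (limma, Benjamini-Hochberg adjusted p = 0.93). For Ptges the single changes sum to 3.32 and the combination gave 1.08. This interaction of -2.24 ± 0.19 had an adjusted p of 1.4e-06 (limma, Benjamini-Hochberg). For Alox15 the sum was -0.86 and the combination -0.22, an interaction of 0.64 ± 0.14 (limma, adjusted p = 0.0085), so the fall with IFN-γ was smaller when E. coli was present. Without IFN-γ + E. coli + ACs replicate 1 it was 0.58 with an adjusted p of 0.026, just short of the fold required. Thus 2 of 9 members had an interaction past the threshold, 1 higher and 1 lower, against 7.44% of all genes (3.16% higher and 4.28% lower). The terms of Ptgs1 (-0.46 ± 0.16) and Alox5ap (-0.46 ± 0.15) were not past it (limma, adjusted p = 0.082 and 0.067).

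**Figure D4:**
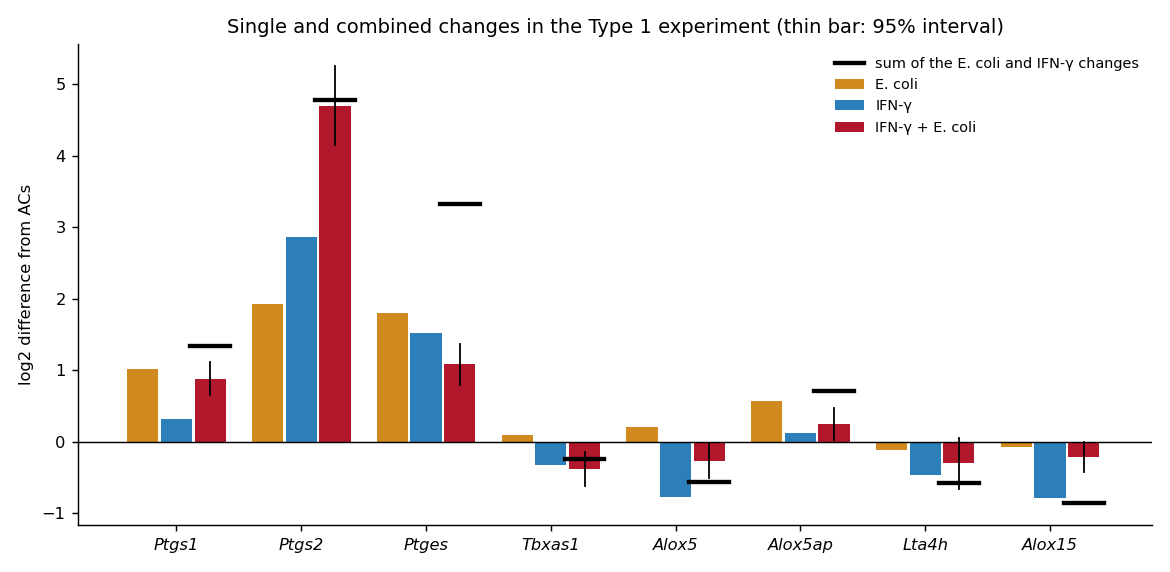
Log2 difference from ACs (y axis) with E. coli, IFN-γ and both for 8 members tested in the Type 1 experiment, Ltc4s being left out for its low counts. The thin line on each red bar is the 95% interval of the combination and the thick line is the sum of the single changes. The sum lies within the interval for Ptgs2 (4.78 beside 4.70) and far above it for Ptges (3.32 beside 1.08). It also lies outside for Ptgs1, Alox5ap, Alox5 and Alox15, of which only Alox15 had an interaction past the threshold. The interval leaves out the error of the sum and so is not a test of additivity.

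Compared with each other, IFN-γ and E. coli differed for 4 of 9 members, against 16.6% of all genes (9.84% higher and 6.72% lower with IFN-γ), and the libraries did not overlap for 6 of 9 members, against 36.8% of genes. Ptgs2 was higher with IFN-γ, and Alox5, Alox15 and Ptgs1 were lower, Alox15 by 0.71 ± 0.10 on the log2 scale (limma difference -0.71, Benjamini-Hochberg adjusted p = 3.0e-05). The response to IL-4 was also compared with the response to IFN-γ + E. coli, each against its own ACs group. The difference of the 2 responses was past the threshold for 3 of 9 members, against 20.4% of all genes (9.67% higher and 10.8% lower). It was -3.21 ± 0.39 for Ptgs2 (limma, Benjamini-Hochberg adjusted p = 3.3e-06), -0.86 ± 0.27 for Ptges (adjusted p = 0.026) and 3.31 ± 1.14 for Ltc4s (adjusted p = 0.044). The differences for Ptges and Ltc4s depended on single libraries, since the call was lost in 6 and 9 of 18 fits with 1 library left out. Differences between the experiments and between the stimuli cannot be told apart in this comparison.

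Around these enzymes, 53 further genes of eicosanoid synthesis, handling and response were read, of which 27 were abundant enough to test with the Type 1 stimuli and 30 with IL-4. E. coli increased 5 and decreased 5 of them, IFN-γ increased 6 and decreased 7, and both stimuli increased 7 and decreased 10, where 10.3%, 21.4% and 31.9% of all genes were past the threshold. The median log2 difference of the tested genes was -0.13, -0.38 and -0.39, beside -0.00, -0.00 and -0.05 over all genes. With IL-4, 1 was increased, against 1.09% of all genes, and the median was 0.06, beside -0.01.

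Upstream of all members, the cytosolic phospholipase gene Pla2g4a, whose product releases arachidonic acid, had 782 to 969 normalized counts with ACs, 1074 to 1149 with E. coli, 1771 to 2249 with IFN-γ and 2227 to 2787 with both. Its log2 difference was 1.19 ± 0.12 with IFN-γ (limma, Benjamini-Hochberg adjusted p = 4.3e-07) and 1.49 ± 0.12 with both (adjusted p = 1.3e-08), and 0.35 ± 0.12 with E. coli (adjusted p = 0.062). With IL-4 it rose from 705 to 767 with ACs to 1203 to 1650, by 0.96 ± 0.14 (limma, adjusted p = 0.012). As for Ptgs2, the call of Pla2g4a was lost without replicate 1 or 2 of either group, with log2 differences of 0.86 to 0.97 (adjusted p = 0.055 to 0.080). Pla2g4a and Ptgs2 were the only genes of both lists past the threshold with IL-4. Pla2g7, which encodes the plasma form of platelet-activating factor acetylhydrolase, was increased in the 3 Type 1 comparisons, by 1.11 ± 0.10, 0.88 ± 0.10 and 1.49 ± 0.10. Pla2g15, a lysosomal phospholipase gene, was decreased by IFN-γ and by both stimuli, with log2 differences of -0.78 and -1.28.

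Among the genes that handle leukotriene C4, the exporter gene Abcc1 was increased in all 3 Type 1 comparisons, from 102 to 115 with ACs to 186 to 201 with E. coli, 185 to 220 with IFN-γ and 352 to 556 with both. Its log2 differences were 0.84 ± 0.16, 0.90 ± 0.16 and 2.00 ± 0.16. Mgst2, which encodes a microsomal glutathione transferase that can also make leukotriene C4, went the other way, from 53.7 to 83.5 with ACs to 15.0 to 26.2 with E. coli, 6.16 to 21.1 with IFN-γ and 2.85 to 12.2 with both. Its log2 differences were -1.67 ± 0.49, -2.19 ± 0.49 and -3.23 ± 0.49. The related Mgst1 was increased by IFN-γ and by both stimuli, by 0.72 ± 0.15 in each. Ggt5, whose product trims leukotriene C4, was decreased by the combination by 1.24 ± 0.30 on the log2 scale.

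Of the other lipoxygenase genes, Alox12e alone was abundant enough to test. It was at 494 to 570 with ACs, 176 to 249 with E. coli, 100 to 152 with IFN-γ and 104 to 157 with both, and was decreased in each comparison by 1.37 ± 0.19, 2.06 ± 0.19 and 1.95 ± 0.19 on the log2 scale. Alox12e and Alox15 are paralogs, and reads they share could have been split or lost in counting. With IL-4 it was 625 to 828 beside 627 to 633 with ACs.

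Of the other prostanoid synthase genes, Ptges3, a cochaperone gene also credited with prostaglandin E synthase activity, was increased in the 3 Type 1 comparisons, by 0.76 ± 0.11, 1.02 ± 0.11 and 1.22 ± 0.11. Akr1b3, an aldose reductase gene, was increased by E. coli and by both stimuli. The carbonyl reductase genes Cbr1 and Cbr2 were decreased by E. coli and by both, Cbr1 also by IFN-γ, and the prostacyclin synthase gene Ptgis was decreased by both, from 33.8 to 36.7 with ACs to 0 to 22.1. Of the genes that break down or export prostaglandins, Ptgr1 was increased by IFN-γ and by both, and Ptgr2 and Abcc4 were decreased by IFN-γ. The call of Ptgr2 was lost under 3 alternatives (adjusted p = 0.051 to 0.062), and without IFN-γ + ACs replicate 3 its log2 difference was -0.40 (limma, adjusted p = 0.21). Hpgd, the main prostaglandin dehydrogenase gene, averaged 1.04 over the 18 libraries and was not tested.

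Among the receptor genes, Ptger2, which encodes the EP2 receptor for prostaglandin E2, was decreased in all Type 1 comparisons with ACs. It was at 264 to 300 with ACs, 80.1 to 149 with E. coli, 57.3 to 121 with IFN-γ and 29.0 to 39.1 with both, with log2 differences of -1.26 ± 0.26, -1.79 ± 0.26 and -3.03 ± 0.26. In the IL-4 experiment it was 44.4 to 85.8 with ACs and 83.4 to 108 with IL-4, which overlap. Ptger4, the EP4 receptor gene, was decreased by both stimuli by 0.92 ± 0.26 on the log2 scale. The high-affinity leukotriene B4 receptor gene Ltb4r1 was increased by E. coli, from 255 to 265 with ACs to 467 to 486, by 0.87 ± 0.17. Cysltr1, a cysteinyl leukotriene receptor gene, was decreased by both stimuli from 16.3 to 32.9 to 4.28 to 16.6, ranges that overlap, with an adjusted p of 0.046 (limma, Benjamini-Hochberg). That call was lost under 4 alternatives (adjusted p = 0.051 to 0.11) and with any of 9 single libraries left out.

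Compared with E. coli, IFN-γ gave higher levels of 4 of the 27 genes (Pla2g4a, Pla2g12a, Mgst1 and Ptgr1) and lower levels of 3 (Alox12e, Ltb4r1 and Ltb4r2), where 9.84% and 6.72% of all genes were higher and lower. The 2 leukotriene B4 receptor genes were lower with IFN-γ by 1.25 and 2.43 on the log2 scale (limma differences -1.25 for Ltb4r1 and -2.43 for Ltb4r2). An interaction past the threshold was found for Alox12e (1.48) and Ptgr1 (-1.58), against 7.44% of all genes. The IL-4 response exceeded that to IFN-γ + E. coli for Pla2g15, Alox12e, Mgst2, Cbr1, Cbr2, Ptger2 and Ptger4 and was below it for Pla2g7, Mgst1, Abcc1, Ptges3 and Ptgr1, 7 and 5 of 28 genes tested, where 9.67% and 10.8% of all genes were higher and lower. The antisense neighbours of Ptgs2, Ptgs2os and Ptgs2os2, were under the minimum for a test.

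**Figure D5:**
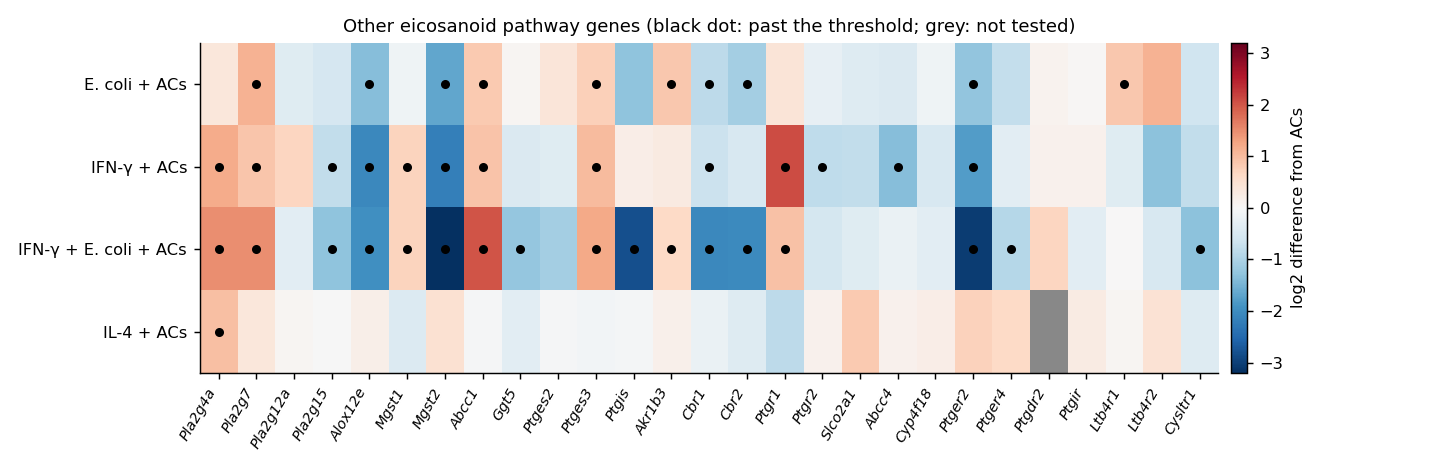
Log2 difference from ACs (colour) of the 27 other eicosanoid pathway genes tested in the Type 1 experiment, by stimulus. Black dots are past the threshold and grey was not tested. Mgst2, Alox12e and Ptger2 are blue with dots in the 3 Type 1 rows, Pla2g7, Abcc1 and Ptges3 are red with dots there, and with IL-4 the only dot is on Pla2g4a.

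Finally, genes whose pattern over the 18 libraries was most like that of the 2 tested members with the widest range were looked up among 6907 genes with a mean of at least 50, on log2 values relative to the ACs mean of each experiment. For Ptgs2 these were Cd9 (Pearson's r = 0.98), Ptpn2 (0.98), Ube2d3 (0.97), Nabp1 (0.96) and Msn (0.96). Cd9, a tetraspanin gene of the eosinophil surface, had means of 507 with ACs, 1859 with E. coli, 2208 with IFN-γ and 5635 with both, and of 1260 with ACs and 2455 with IL-4. For Ltc4s the likeness was lower, at 0.82 for Mpv17 and Nr2c2ap, 0.81 for Adprhl2 and 0.80 for Dcakd and Rnf187. The range of Ltc4s, 3.31 on the log2 scale, rests on low counts. It had 0 to 31 reads in the Type 1 libraries and 5 in the shallow ACs library of the IL-4 experiment. Its choice and the genes named for it are therefore limited by counting. The libraries share scaling and stimuli, and these correlations are descriptions of the pattern.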

How the data were processed

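RNA sequencing of 18 eosinophil libraries was analysed, 3 in each of 6 groups taken from the sample labels. Libraries were made by CEL-Seq2, which reads the 3′ ends of transcripts, from 2 ng of RNA. The deposited values are a signal per gene and library, that is, the read count divided by a size factor, as DESeq2 gives it. The authors' processing notes name FastQC 0.11.5, cutadapt 1.10, TopHat2 2.1.0, Bowtie2 2.2.6, HTSeq 0.6.1, DESeq2 1.26.0 and GRCm38. The methods describe 2 pipelines, and the one behind this table, its use of strand and its use of molecular identifiers are not given in the sources used here.

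Dividing each value by what a single read is worth in its library returned a whole number for 100.0% of values (within 0.1 read), and these recovered reads served the count tests. Of the identifiers, 54409 were matched to a symbol without their version, 53229 with the same version, and 37 had none.

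Linear models of limma 3.58.1 (R 4.3.3), moderated by eBayes with trend, were fitted to log2(value + 1), over genes whose mean was 10 or more in the fitted libraries: 12 for the Type 1 experiment, 6 for IL-4, and 18 for the difference of the responses. P-values were adjusted by Benjamini-Hochberg over all genes tested, with the study's limits of 0.05 and 1.5-fold. Standard errors and 95% intervals are from these fits. Alternatives were edgeR 4.0.16 (quasi-likelihood) and DESeq2 1.42.0 on the recovered reads, a pseudocount of 5, no filter or a mean of at least 50, upper-quartile rescaling, array weights, the replicate number in the model, 1 fit of all 18 libraries, no fold limit, and libraries left out. The fits were tested on simulated data. Motifs, shares and figures were computed in Python 3.11.15.

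All 10 members are named. Of the 53 other pathway genes, those past the threshold in a comparison are named, with a few others, and likeness was taken over the 5 genes most correlated with each of 2 members. The members, the lists of pathway genes and markers, and the motifs (C/EBP, cAMP response element and E-box last, after the values were seen) were chosen with earlier results of these data known. A second identifier of Dpep2, at 0 in all libraries, was left out. Positions are from GENCODE on GRCm38 and promoter sequences from RefSeq.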

Additional observations from a re-analysis of the deposited data

Results flagged for a closer look

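In the Type 1 experiment the response to IFN-γ differed with and without E. coli for 2 members, as tested by an interaction term over 12 libraries. For Ptges the interaction was -2.24 on the log2 scale, with means of 365 with ACs, 1268 with E. coli, 1047 with IFN-γ and 767 with both. For Alox15 it was 0.64, with means of 9408, 8930, 5456 and 8106 in the same order.

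The response to IL-4 differed from the response to IFN-γ + E. coli for 3 members, as tested by the difference of both responses over 18 libraries. It was -3.21 for Ptgs2, -0.86 for Ptges and 3.31 for Ltc4s. The Type 1 values of Ltc4s behind the last of these rested on 0 to 31 reads per library. The test for outlying libraries needs groups of at least 4 and was not run.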

How the results depend on the processing

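The 20 changes of members past the threshold kept their direction in all 201 values under the alternatives and lost the threshold in 5 of them. The alternative without a fold limit reuses the main fit, so its values among the 201 could not lose the threshold or change sign. With 1 library left out the 20 changes lost the threshold in 22 of 252 values, and none changed sign. Some of these fits left out a library of a group outside the comparison. The IL-4 calls rest on 6 libraries, of which 2 are shallow, and Hpgds and, in the Type 1 experiment, Ltc4s are limited by counting.

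For IL-4, 2 members were higher, Ptgs2 and Ltc4s, with all genes above 0, array weights, edgeR, DESeq2 and without both shallow libraries, where Ltc4s was 1.83, 1.21, 1.32, 1.44 and 1.00 (adjusted p = 2.0e-04, 5.4e-04, 0.021, 6.6e-04 and 0.0033 by the tool of each fit). Without a fold limit, 1 member (Tbxas1) was lower with both stimuli and 5 were lower with IFN-γ than with E. coli. For the IL-4 response minus that to both stimuli, 0 members were higher and 1 lower with all genes above 0, 1 was lower with upper-quartile rescaling, and 0 were higher with DESeq2 or without both shallow libraries. The cause of these shifts was not tested. Among the other pathway genes, calls were lost with all genes above 0 for Mgst2 (E. coli, adjusted p = 0.066), Cbr1 and Ptgr2 (IFN-γ, 0.058 and 0.062) and Cysltr1 (both, 0.11), in 1 fit of 18 libraries for Mgst2, Ptgr2, Akr1b3 and Cysltr1 (0.051 to 0.054), for Akr1b3 with upper-quartile rescaling (both, 0.50 on the log2 scale), for Ptgr2 with array weights (0.059), and for Cysltr1 with edgeR (0.051) and DESeq2 (0.058). Values near 0 changed sign: the Ptgs2 interaction was 0.034 with a pseudocount of 5 and 0.0077 with array weights, Ltc4s with IFN-γ was -0.0062 with upper-quartile rescaling, and Lta4h with IL-4 was 0.0064 with edgeR and 0.0022 with DESeq2.

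With 1 library left out, 0 to 1 members were higher with IFN-γ than with E. coli, in the interaction, with IL-4, and in the IL-4 response minus that to both, where 1 to 3 were lower. Ltc4s ranged from -1.11 to 0.17 with E. coli, -0.53 to 0.53 with IFN-γ, -0.10 to 1.19 for IFN-γ against E. coli and -1.80 to 0.065 for the interaction, and Ptgs2 from -0.35 to 0.21 for the interaction. Omitting 1 library also lost calls of Mgst2, Cbr1 and Cbr2 with E. coli (adjusted p up to 0.14, 0.080 and 0.073), of Pla2g15, Cbr1, Ptgr2 and Abcc4 with IFN-γ (up to 0.10, 0.10, 0.21 and 0.094), of Akr1b3, Ptgr1 and Cysltr1 with both (up to 0.066, 0.058 and 0.19), of Pla2g12a and Alox12e for IFN-γ against E. coli (up to 0.11 and 0.093) and of Pla2g4a with IL-4 (up to 0.080). With IL-4, Hpgds ranged from -0.26 to 0.61, Lta4h from -0.097 to 0.087 and Ptges from -0.0041 to 0.41.

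With the replicate number as a replicate block, no call of a member changed (3, 2 and 3 higher and 0, 2 and 0 lower in the Type 1 comparisons, 1 higher with IL-4), while 45 rather than 79 of all genes were higher with IL-4. Over all groups the numbers did not pair the libraries (correlations of deviations of -0.12 to 0.25 over 18 same-numbered Type 1 pairs and 0.0062 to 0.064 over 3 IL-4 pairs). The 3 same-numbered pairs of IFN-γ + ACs with IFN-γ + E. coli + ACs did deviate together, at 0.17, 0.18 and 0.25, beside -0.16 to 0.020 for their differently numbered pairs, a hint from the data and not the design. Of all genes, 389 higher and 356 lower were called for IL-4 with array weights, 345 and 311 without both shallow libraries, 127 and 85 with edgeR, 128 and 81 with DESeq2 and 125 and 83 with all genes above 0, beside 79 and 37. For the other comparisons, counts moved by over 1.5 times to 645 lower (IFN-γ) and 963 lower (both) at a mean of at least 50, 870 lower (E. coli) and 1542 higher (IL-4 minus both) with array weights, and for the interaction to 485 higher with DESeq2 and 281 lower in 1 fit of 18 libraries. Upper-quartile rescaling moved the median of all genes with both stimuli by -0.14 and the split of calls from 1494 higher and 1746 lower to 1155 and 2200, and that of IL-4 minus both by 0.13, with 1268 higher and 870 lower in place of 1007 and 1121. With 1 library left out, of all genes 352 to 614 were lower with E. coli, 31 to 95 higher and 16 to 51 lower with IL-4, and 161 to 444 higher and 239 to 582 lower in the interaction.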
